A study of Mus musculus with 12 samples.

Results

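The untreated control arrays of a hippocampal slice experiment were described here as a baseline: which genes gave signal above background, which did not, and how far the arrays differed. The 3 samples titled Control ACSF were taken by their labels, 3 of 12 samples in the series and 3 of its 9 distinct arrays, and no treated group was compared with them. The RNA came from organotypic cultures of C57BL/6J mouse hippocampus, that is, slices of the brain region kept alive on a support for days to weeks. Control slices were held for 2 h in artificial cerebrospinal fluid (ACSF), the salt solution that bathes brain tissue, with neither the ischemic solution nor the anion transport blocker DIDS used in the other groups. The labels give the gender of the animals as mixed and record no age, and they do not say whether the 3 arrays came from separate cultures, so the spread below may be technical.

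The hippocampus is built around layers of glutamatergic pyramidal cells and granule cells, held in check by a smaller population of GABAergic interneurons. Astrocytes clear glutamate and supply metabolites, oligodendrocytes make myelin, and microglia are the resident macrophages. In a slice culture the cut surfaces are repaired by reactive astrocytes and microglia, blood flow is absent, and the neurons are fed through the medium.

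Each array held 46628 probes of the Illumina Mouse-6 design, and each value is the mean fluorescence intensity of about 35 beads, as deposited and without normalization. Median intensity was 80.1, 83.6 and 78.2 on Control ACSF 1, 2 and 3, the order in which all values are given below. When the arrays were scaled to the same median, 77.7% of detected named genes were brightest on array 3, and after background correction and quantile normalization 45% were. Median scaling raised array 3 most, since its deposited median was lowest. The share in the deposited intensities was not counted, and a highest value on array 3 is not read as particular to a gene. Arrays 1 and 2 lay on one chip and array 3 on another, so array and chip cannot be told apart for array 3. Brightness depends on the probe as well as on the RNA, so bright and dim probes are described without ranking the RNAs they report.

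Control ACSF 3 stood apart from the other control arrays in 2 ways that its label does not give. The deposited bead spread of a detected probe had a median of 29.8% and 28.4% of the signal on arrays 1 and 2. On array 3 it was 150.5%. Of the other arrays on the chip of array 3, IS 3 and ACSF + DIDS 2 had 151.7% and 160.8%. The arrays IS 2, ACSF + DIDS 1 and IS + DIDS 1, also on that chip, had 27.2%, 26.8% and 26.9%. Whether the deposited spread is the same measure on every array was not tested. Xist, the RNA that coats the inactive X chromosome of female cells, was read by 2 probes. The brighter read 830.4, 823.3 and 74.2 and was not detected on array 3, whereas all other 8 distinct arrays of the series detected it at 823.3 to 1879.7. The dimmer read 101.4, 102 and 57.1 and was detected on no control array. In the other groups it was detected on every distinct array but IS 3. The Y-linked gene Kdm5d read 259, 301.5 and 465.5 and was detected on all 3 arrays, and Ddx3y, also Y-linked, read 110.3, 113.5 and 160.8 and among the controls was detected only on array 3. The array titled IS 3 had similar values for both (471.2 and 142.7, both detected) together with the brighter Xist probe at 830.1. Of these probes the missing signal of the brighter Xist probe is thus what set array 3 apart in the series. The Xist value of array 3 thus goes against its mixed label, and the main counts that rest on it are also given without it.

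A probe was called detected when its BeadStudio detection score, which runs from 0 to 1 and compares the signal with negative control probes, was above 0.99 on all 3 arrays. By this rule 15231 of 46628 probes were detected (32.7%), a further 874 passed on 2 arrays and 1034 on 1 array, and 29489 passed on none. Of all probes that passed anywhere, 88.9% passed on all 3 arrays. Leaving out array 3 gave 15388 probes. The detected probes had a median intensity of 572.7, with 177.9 and 3794.6 as 10th and 90th percentile, and 417 of them (2.74%) were brighter than 10000. Just inside the threshold, the 2228 probes whose lowest score was under 0.995 had a median intensity of 167, and just outside it the 1640 probes with a lowest score from 0.98 had 127.8.

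Probe names gave a gene for 9805 probes of 8106 genes, each represented by its brightest probe. Of these genes 4126 were detected (50.9%), or 4151 without array 3, and 3624 had no detection on any array. Without array 3, 63 of 64 lists and families kept their count of detected genes within 1.5 times. Detection was then asked of arrays 1 and 2 only, so no count could fall. Lists that stayed at 0 are among those kept. The share of 50.9% is the background against which the counts of gene groups are to be read. Another 10584 detected probes carried no name that could be read, so a gene that goes unmentioned was not necessarily silent. Among 1494 genes with several probes, the probes disagreed for 519, and a probe at background therefore does not show that its gene was not transcribed.

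The brightest named probes belonged to ubiquitin, ribosomal and mitochondrial genes, and to several genes of glia and of membrane lipid synthesis. Ubb, which encodes a ubiquitin precursor that tags proteins for degradation, was the brightest named gene at 38470.3, 39160.7 and 45967.7, a mean of 41199.6 ± 4143.7 (SD, n = 3). Rps27a, which encodes ubiquitin fused to a ribosomal protein, read 33707.4, 32532.8 and 37276.1 and was also among the 20 brightest. Both genes hold near-identical ubiquitin sequence, so their probes may share signal, which was not tested. Prnp, the cellular prion protein that is abundant on neurons, read 33991.5, 36993.9 and 39373.1. Scd2, the stearoyl-CoA desaturase of brain, read 32319.8, 29825.7 and 39411.3, and Cd81, a tetraspanin of many cell surfaces, read 26876.1, 28339.2 and 35077. These 5 genes were bright on every array, and each read highest on array 3 as deposited. After normalization array 3 was highest for Ubb, Scd2 and Cd81, array 2 for Prnp and array 1 for Rps27a.

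Among the 20 brightest, 6 more genes encode ribosomal proteins or an iron store: Rpl41 (32659.1, 33745 and 39873.1), Rpl37 (27202, 30206.3 and 36139.4), Rps20 (27687.7, 31048 and 33597), Rpl38 (27635.5, 29964.9 and 32748.5), Rpl23 (27560.5, 26944.2 and 32257.2) and Fth1, the ferritin heavy chain (29531.9, 29845.3 and 32761.5). Ppia, the folding enzyme cyclophilin A, read 28585.2, 26892.4 and 36780.7, and Rtl8a, a gene derived from a retrotransposon, read 25707.6, 27638.7 and 33158. Gapdh, Mt1 and Cst3 are described with their groups. Relative to each array's own intensity distribution the 20 brightest genes differed little: after normalization their log2 intensity had an SD between 0.028 (Rpl23) and 0.187 (Cst3). Between 18 and 20 of the 20 genes were the same under each other scaling and with each array left out.

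Among the 100 brightest probes, which held 11.6% of the summed intensity of all detected probes, 40 had a gene name, 10 were designed to mitochondrial DNA and 3 to 18S ribosomal RNA. Of the 40 named, 13 were for ribosomal proteins.

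Transcripts of the mitochondrial genome were read by 13 dedicated probes, of which 12 were detected. The probe for ND4, a subunit of respiratory complex I, read 42209.1, 40184.6 and 41381.3, and a second probe named ND4 read 38412.1, 35845.2 and 38105.2. Cytochrome b of complex III read 38981.5, 36441.9 and 37871.3 on its dedicated probe, and the second, named CYTB, read 30481.2, 30530.2 and 31917. Cytochrome oxidase subunits COXI, COXII and COXIII averaged 29972.8, 27427.8 and 35338. The exceptions were ND3, detected but dim at 345.4, 358.2 and 368.5, and ND6, the only protein gene encoded on the light strand, at 68.6, 73.4 and 61, which was detected on no array. The 3 probes for 18S ribosomal RNA averaged 45212, 36287.7 and 25189.6, the first of these being the brightest probe by its mean over the 3 arrays.

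Neuronal genes were detected nearly throughout. Of 28 measured pan-neuronal markers 26 were detected, or 92.9%, and 2, Snap25 and Nefl, were detected on no array. In RNA from whole slices, fewer cells of a type and less RNA per cell cannot be told apart. Syp, the synaptic vesicle protein synaptophysin, read 14866, 16331.4 and 21929.7, a mean of 17709 ± 3727.9 (SD, n = 3). Syn2, a synapsin that tethers vesicles, read 10639.5, 10514.2 and 14820.2, and Syt1, the calcium sensor of transmitter release, read 7928.8, 8075.9 and 10277.9. In all 3 genes array 3 lay above both other arrays.

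Hpca, the calcium sensor hippocalcin for which the hippocampus is known, read 8269.5, 7981.3 and 16889.7. Eno2, the neuronal enolase, read 7377.9, 7872 and 10870.6, and Ncdn, which encodes neurochondrin, read 6771.8, 7026 and 10330.7. Hpca differed most of these between arrays, and its value on array 3 stood well above the others. The remaining detected members went down to a mean of 184.7, that of Tubb3. Snap25, a core part of the release machinery, averaged 71.1 and Nefl, the light neurofilament, 53.5. Both were near the median of negative control values recovered from the detection score, 61.3 to 64.7. Each was read by 1 named probe.

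Markers of hippocampal principal cells and their subfields were detected in 13 of 18 cases. Slc17a7, the vesicular glutamate transporter VGLUT1 of pyramidal cells, read 3478.2, 3758.7 and 5698.9. Fibcd1, a marker of field CA1, read 3388.4, 3248.3 and 3551.9, and the 3 arrays were close. Etv1 averaged 3433.6 ± 549, Satb1 2846.3 ± 314.4 and Zbtb20, a factor needed for CA1 identity, 1971.3 ± 202.7 (SD, n = 3), all of them transcription factors. Prox1, the factor that defines dentate granule cells, was detected as well, at 809.4, 625.6 and 1193.5, as was Calb2 (calretinin), which averaged 1633.6 and was added to the named genes after its values were seen, as was Prox1. Calb1 (calbindin) averaged 73.6, Nrp2 71.9 and Iyd 116.1, and none of these 3 was detected on any array.

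Interneuron markers were detected in 4 of 10 cases, too few to set apart from the share of all named genes, and with a detection score above 0.95 the count was 6. Crhbp, a binding protein for corticotropin-releasing hormone, read 1241.8, 2164.9 and 1841.3, and Reln, secreted by interneurons of the outer layers, read 1472.7, 1431 and 2242. Kcnc2, a channel of fast-spiking cells, was dim at 143.1, 155.4 and 192.9. The transcription factors Lhx6 and Nkx2-1 averaged 75.5 and 100.1, and the receptor Erbb4 and the RNA editing enzyme gene Adarb2 54.2 and 77.8, none of them detected on any array. Gad1, Gad2, Pvalb and Sst, the usual markers of these cells, had no probe that could be named.

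Astrocyte markers were detected in 13 of 13 cases and included some of the brightest probes. Mt1, a metallothionein that binds zinc and copper, read 32287.6, 32192.9 and 40654.5, and Cst3, the protease inhibitor cystatin C, read 29453.6, 33339.2 and 42220.7. Both are also made by other cells. Apoe, the main lipid carrier of brain, read 22493.7, 24170 and 24874.1, with a mean of 23845.9 ± 1222.8 (SD, n = 3). Gfap, the intermediate filament that marks reactive astrocytes, read 17961.7, 19019.7 and 20195.2, a mean of 19058.9 ± 1117.3. These were close on the 3 arrays, and after normalization the log2 intensity of Gfap was 14.24, 14.25 and 14.13.

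Plpp3, a lipid phosphate phosphatase of astrocytes, read 17167.3, 18232.9 and 20376, and Mt3, the brain metallothionein, read 13803.1, 15927.4 and 23959.6. For both, array 3 read highest as deposited. After normalization the mean log2 intensity of arrays 1 and 2 minus that of array 3 was 0.04 for Plpp3 and -0.44 for Mt3. The dimmest detected member was Slc1a2, the glutamate transporter GLT-1, whose named probe averaged 221.7 ± 44.6, added here after its values were seen because it is otherwise an abundant transcript of these cells.

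Oligodendrocyte lineage markers were likewise detected in 15 of 15 cases. Bcas1, a marker of newly myelinating cells, read 18408.7, 14748.6 and 18001.4, and Mog, a protein of the outer myelin surface, read 6875.7, 5890.5 and 8358.2. Tspan2, a tetraspanin of myelin, read 6074.9, 5747.7 and 8275.9, and Trf, the iron carrier transferrin, read 4676.4, 4592.8 and 6084.8. Fa2h, which makes the hydroxylated lipids of myelin, averaged 3957.5 ± 517.5 (SD, n = 3), and Qdpr, an enzyme of biopterin recycling, averaged 8021 ± 994.4. Olig2, a transcription factor of the lineage, was the dimmest of the 15 but detected, at 170.3, 217.9 and 245.3 (named after its value was seen). Mbp, the main basic protein of myelin, had no probe whose gene could be read.

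Of the microglia and macrophage markers, 11 of 14 were detected. Spp1, the secreted protein osteopontin, read 8681.3, 12508.9 and 9571.8, Gpnmb, a lysosomal membrane glycoprotein, read 8319.8, 10128.7 and 8718.8, and Lyz2, lysozyme, read 4740.8, 10380.1 and 6655.9. Each of these 3 was highest on array 2. Complement components C1qb and C1qa read 2874.7, 3307.1 and 2656.6 and 1791.8, 1846.3 and 1348.2, and both were lowest on array 3. Lpl, lipoprotein lipase, read 3242.9, 3739.2 and 4827 and was highest on array 3. Itgam (CD11b) averaged 95 and Cd74, the invariant chain of MHC class II, 96.4, and neither was detected on any array. The median SD of the 11 members after normalization was 0.316 on the log2 scale, against 0.162 for the pan-neuronal and 0.146 for the astrocyte markers.

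**Figure D1:**
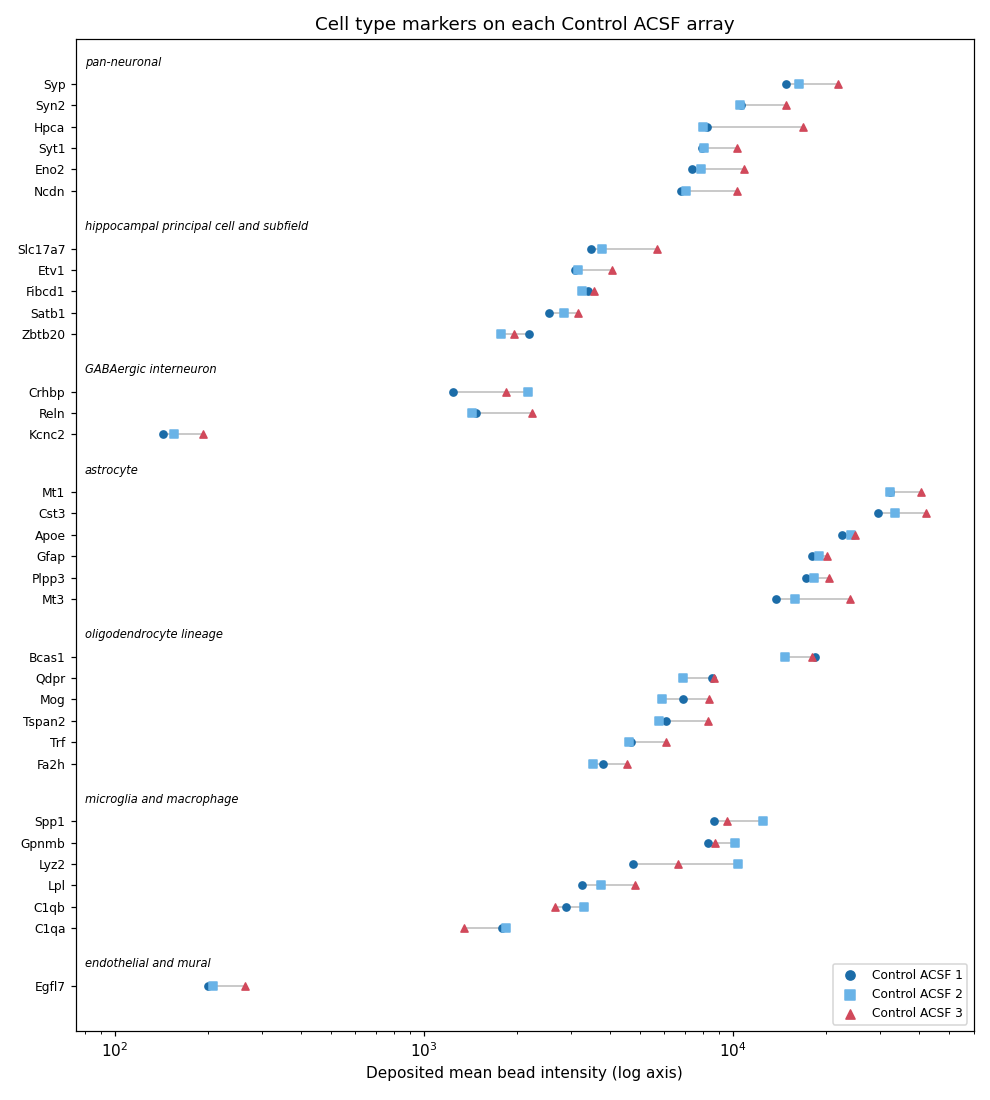
Deposited mean bead intensity (log axis) of up to 6 detected markers per cell type on Control ACSF 1, 2 and 3, each symbol 1 array and each grey line the range over arrays. Array 3 (triangles) lies at the right in the pan-neuronal rows, as for Syp at 21929.7 against 14866 and 16331.4, and at the left for C1qa and C1qb.

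Markers of cells outside the neural tissue proper were mostly not detected where measured, but many had no probe that could be named. Measured were 6 of 33 listed endothelial and mural markers and 11 of 22 for fibroblasts and meninges. For ependyma and choroid plexus 3 of 17 were measured, and for blood and lymphocytes 7 of 21. Of 6 endothelial and mural markers 1 was detected, Egfl7, a secreted endothelial factor, at 200.3, 208.1 and 263.5. Pecam1 averaged 82.2, Acta2 of smooth muscle 71.8, Eng 95 and Abcc9 of pericytes 59.1, with no detection on any array. Fibroblast and meningeal markers were detected in 4 of 11 cases (36.4%, against 50.9% of all named genes). They were led by the proteoglycan Dcn at 1810.1, 1684.7 and 2663.8. The collagens Col1a1, Col1a2 and Col3a1 averaged 67.9, 55.6 and 72.9 and were not detected, while Col6a1 (426) and Col5a1 (226.8) were, as was the matrix protein Fbln1 (177).

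None of 3 ependymal and choroid plexus markers was detected on all 3 arrays, and Clic6, a chloride channel of the choroid plexus, read 436.8, 109.8 and 128.6 and passed on 2 of them. Blood and lymphocyte markers were at background throughout, 0 of 7: the globins Hba-a1 and Hbb-b1 averaged 79.4 and 78.9, Cd3e of T cells 53.6 and neutrophil elastase, Elane, 69.6. Of 300 probes for immunoglobulin segments 2 were detected, and of 52 for T cell receptor segments 0. Cell cycle genes were detected in 4 of 13 cases, with Pcna, the DNA polymerase clamp, at 807.5, 879.7 and 955.9, Mcm7, a subunit of the replicative helicase, at 383.5, 398 and 445.4, Cenpa at 322.3 and Ccnb1 at 151.2 on average. Mki67 averaged 92.6, Bub1 69.6, Cdc20 96.9 and Hmgb2 55.3, and none of these was detected on any array.

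Of the genes of glutamate transmission 11 of 13 passed, 84.6%, against 50.9% of all named genes. Gria2, the AMPA receptor subunit that limits calcium entry, read 8177.7, 8915.1 and 13870.5, and Gria1, its partner in CA1, read 1434.6, 1227.9 and 2144.2. Slc1a1, the neuronal glutamate transporter, read 3093.7, 3597.4 and 4758.7, and Grm5, a metabotropic receptor, read 1427.8, 1627.5 and 2354.7. In all 4 the highest value was on array 3. Homer2, a scaffold of the postsynaptic density, averaged 1470.8 ± 348.2 (SD, n = 3). The NMDA receptor subunit Grin2d averaged 61.7 and was not detected on any array.

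For GABA, 4 of 7 genes passed, near the background share, among them Gphn, the scaffold protein gephyrin of inhibitory synapses, which read 1027.9, 1016.3 and 1471.2. Gabra2 (66.7), Gabrg3 (77.5) and Gabbr1 (53.8) were not detected on any array. Aminergic and cholinergic genes passed in 7 of 16 cases. The nicotinic subunits Chrna4 and Chrnb2 read 427.1, 478.5 and 537.4 and 323.8, 413 and 527.4, and Adrb1, Drd1 and Adra1a averaged 306.2, 231.4 and 177. Htr2a (57.3), Htr4 (74), Chrm2 (75.9) and Maoa (55.4) were at background.

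Energy metabolism was read by bright probes. Of 19 genes of glycolysis and lactate handling 15 were detected. Gapdh read 29470.2, 30373.4 and 38273.8, Pkm, pyruvate kinase of muscle and brain, 17181.7, 16502.2 and 22168.4, and Aldoa, the aldolase that splits fructose bisphosphate, 13003.8, 10849.9 and 18599. Tpi1, triose phosphate isomerase, read 12534.8, 11937.6 and 16613.8, Pgk1, phosphoglycerate kinase, 11349.3, 13486.9 and 15768.3, and Pfkm, the muscle form of phosphofructokinase, 11736.8, 12427.3 and 14092.7. As deposited, all 6 read highest on array 3. After normalization the mean log2 intensity of arrays 1 and 2 minus that of array 3 was 0.06 for Pfkm and -0.37 to -0.11 for the others. Gapdhs, the form known from sperm, averaged 53.2 and was at background, as was the transporter Slc16a7 (54.9), while Eno3 of muscle averaged 133.1 and passed on 1 array.

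The citric acid cycle and pyruvate dehydrogenase were represented by 11 detected genes of 13. Sdhc, a membrane anchor of succinate dehydrogenase, read 6109.5, 5832.3 and 6460.2, Idh3b 5341.3, 5712.1 and 6560.6 and Mdh2, the mitochondrial malate dehydrogenase, 4389.2, 4610.1 and 7010.3. Sdhb (4211.9 ± 669.4) and Idh1 (3295.5 ± 692) followed (mean ± SD, n = 3). Sdha, the catalytic subunit of the same succinate dehydrogenase, averaged 53.3 on its probe and was not detected on any array, although its partners Sdhb and Sdhc were bright.

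Nuclear-encoded subunits of the respiratory chain and ATP synthase were detected in 45 of 47 cases, 95.7%. Cox6c of cytochrome oxidase read 22634.9, 24371.4 and 28787, Atp5j2 of ATP synthase 23777.6, 24172.7 and 25785.5 and Ndufa4 20243.6, 19760.9 and 24687.4. Cox8a (20294.7 ± 4166), Ndufa13 (19319.2 ± 1825.4) and Atp5h (18919.7 ± 3245.8) followed (mean ± SD, n = 3). Apart from Sdha, the 1 member at background was Uqcc1, an assembly factor of complex III, at 63.5.

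Of 5 genes of fatty acid oxidation 3 were detected. Hadhb, of the trifunctional protein, read 8697.3, 8540.8 and 9565.2 and Etfa, the electron transfer flavoprotein, 8555.4, 7926.1 and 9092.6, and Cpt1c, the brain form of carnitine palmitoyltransferase, was dimmer at 343.2, 414.2 and 522.5. Hadh averaged 87.7 and was not detected. Sterol synthesis was detected in 11 of 13 cases: Hmgcs1, the HMG-CoA synthase at its start, read 19278.2, 20488.3 and 25344.8, Nsdhl 4141.8, 4415.4 and 5536.9 and Cyp51, lanosterol demethylase, 4394, 4568.3 and 4685.4. Fdps averaged 3189.7 ± 561.4, Srebf2, the transcription factor that drives the pathway, 1534.5 ± 50.7 and Lss 761 ± 104.7 (SD, n = 3), and Sc5d was at background (64.1).

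Of 10 genes of the pentose phosphate pathway and of peroxide and glutathione handling 9 were detected. Prdx1, a peroxiredoxin, read 18586.8, 19836.2 and 21857.6, Prdx5 12417.4, 16013.1 and 19075.3 and Prdx6 8177.2, 7863 and 6051.9. As deposited, array 3 was highest for the first and second and lowest for the third. After normalization the mean log2 intensity of arrays 1 and 2 minus that of array 3 was 0.07, -0.17 and 0.7. Tkt, transketolase, read 8072.5, 9357.3 and 8180.1, Sod1, the cytosolic superoxide dismutase, 6362.9, 6015.9 and 7216.3, and Taldo1 5161.4, 4884.9 and 4679.1. Prdx2, at 90.4, was not detected on any array. Ckb, the brain creatine kinase that buffers ATP, read 24542.4, 25961.4 and 34050.2 and was the brightest of the creatine, glutamine and ammonia genes, of which 4 of 7 were detected. Got2, Glud1 and Ass1 averaged 9566.1 ± 1736.8, 6955.7 ± 874.9 and 1780.9 ± 302.6 (SD, n = 3). The muscle kinase gene Ckmt2 (58.4) and the urea cycle genes Cps1 (95.9) and Otc (61.9), which are known from liver, were at background.

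Families of largely general cell function were detected well above the background of 50.9%. Families were formed by gene symbol, so some members share a name but not the function. Examples are Eif4ebp1, Eif4ebp2 and Eif2ak1 among the initiation factors and Tubgcp4 among the tubulins. These were cytosolic ribosomal proteins (62 of 70), mitochondrial ribosomal proteins (33 of 35), proteasome subunits (16 of 18), translation initiation factors (25 of 30), tubulins (11 of 13) and hnRNP proteins (13 of 17). Solute carriers (69 of 128) and Zfp zinc finger genes (82 of 170) lay near it, and potassium channels (12 of 31) below it. Atp6v1e1, a subunit of the proton pump that acidifies vesicles, read 18616, 18835.6 and 24131.8, and Tubb4b, a beta tubulin, 16917.3, 18512.2 and 21666.7. Ywhaq, a 14-3-3 adaptor protein, read 8162.7, 8069 and 13008.3.

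Many families known from other tissues gave no detected gene or nearly none. None was detected among 78 vomeronasal receptors, 22 taste receptors, 17 defensins, 16 Hox genes, 14 small proline-rich and late envelope genes, 12 natural killer receptors, 10 type I interferons, 7 Tbx factors, 6 prolactin family genes, 4 Rhox genes or 3 caseins. Pregnancy glycoproteins gave 0 of 11, although 1 passed on fewer than 3 arrays. Hox genes pattern the body behind the forebrain, and vomeronasal and taste receptors serve sensory cells.

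In some such families single members passed. Of 323 olfactory receptors 2 were detected, Olfr1380 at 148.5, 158.9 and 166 and Olfr1371 at 167.4, 153.7 and 142.7, both close to the dimmest detected probe of the arrays (128.8). Of 22 keratins 1 was detected, Krt10 of the epidermis, at 476, 526.3 and 633, and of 17 keratin-associated proteins Krtap5-4, at 154.4, 171.3 and 173.2. Of 12 kallikreins only Klk6, a protease of oligodendrocytes, was detected, at 1127.4, 531 and 600.4. Wnt5a was the 1 Wnt ligand of 5, at 258.6, 245.4 and 257.5. Fgf13, an intracellular protein of the Fgf family that binds sodium channels, was bright at 8825.2, 9368.3 and 13482.4, whereas the secreted ligands Fgf10 and Fgf9 averaged 428.9 and 300.9, 3 of 8 Fgf genes in all. The Spata and Tex genes, named for spermatogenesis and testis, were unlike the other families: 9 of 20 were detected (45%), near the background share, with Spata13 at 1884.5, 2165.9 and 2241.7 and Tex261 at 1887.9, 1861.7 and 1966.7 (named after their values were seen).

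Immune signalling genes were mixed. Chemokines were detected in 8 of 15 cases, near the background share. Cxcl1, which attracts neutrophils, read 2192.6, 2484.2 and 5916.5, and Cxcl14 read 2602.7, 3300.5 and 2539.5. Of 10 interleukins 2 were detected, Il18 at 885.5, 990.3 and 926.6 and Il16 at 374.2, 408.1 and 789.4. Cxcl1 and Il16 were much brighter on array 3 than on arrays 1 and 2, while Cxcl14 and Il18 were not. Among genes grouped by symbol as MHC class I and II, 7 of 23 passed. One of them, H2-Ke6 (mean 1682.7), shares the symbol but is not an MHC molecule. Probes of near-identical members may share signal, which was not tested. Of 32 cytochrome P450 genes 7 were detected, among them Cyp2j9 (2995.1, 3650.7 and 3123.6) and Cyp1b1 (1396.3, 2168.9 and 2224.6), and 4 of 13 UDP-glucuronosyltransferases, all of the Ugt1a cluster, whose members share exons.

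Single genes of other organs also passed: Apoa1 of liver at 354.8, 308.7 and 372.7, Myh7 of slow muscle at 437.3, 419.7 and 316.3, Prm2 of sperm at 137.2, 147.5 and 142.9 and Sag of retina at 194.1, 188.9 and 226.7. Each was the 1 detected member of its list, out of 5, 6, 3 and 10 measured. These values show how often a probe for a gene of another tissue passed the threshold, and whether they report those genes was not tested.

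**Figure D2:**
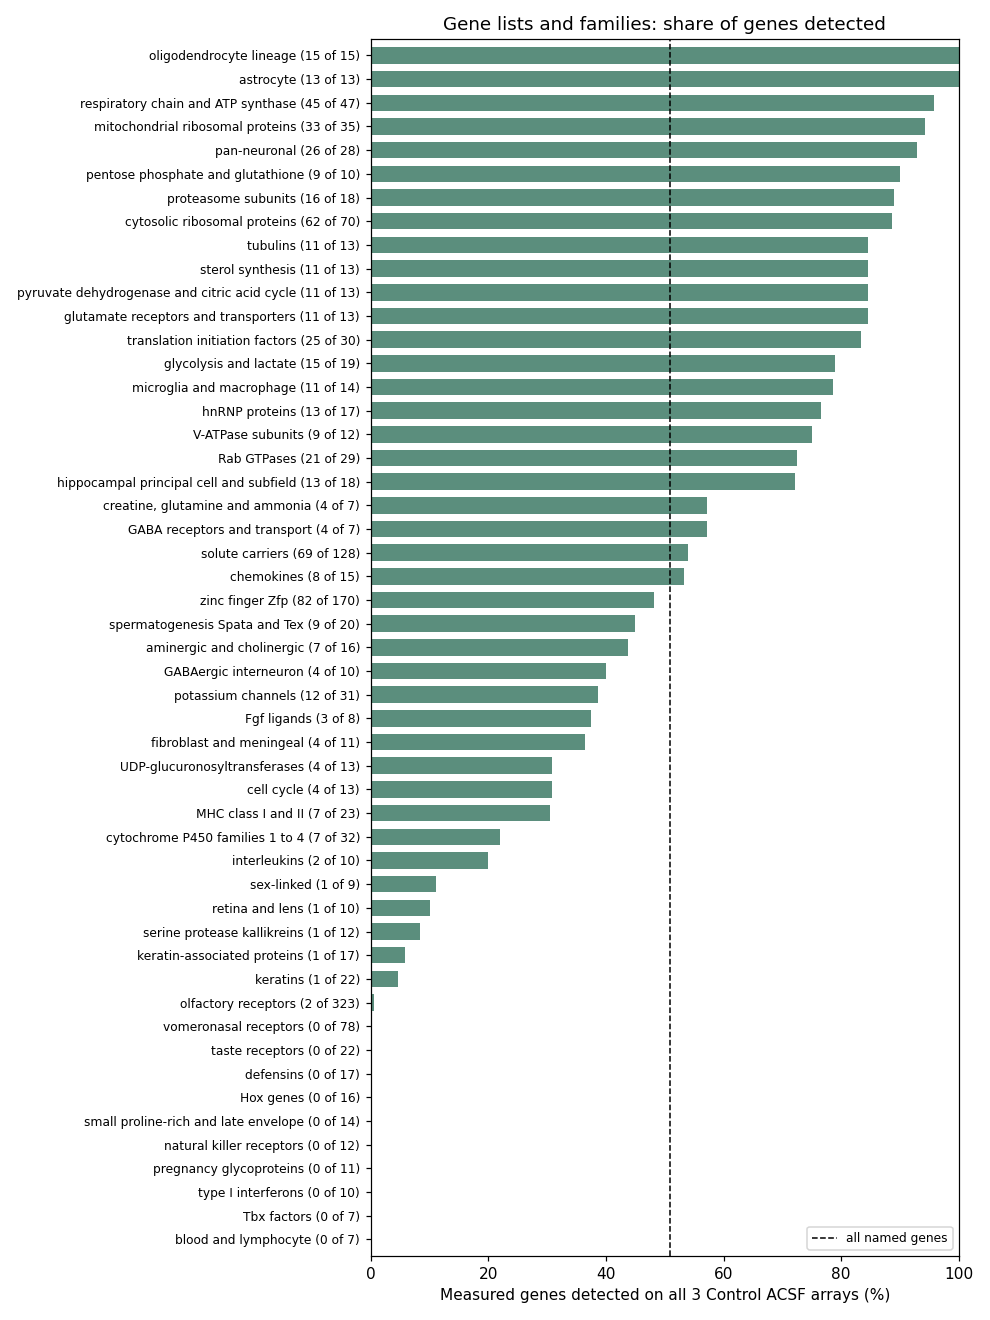
Share of measured genes detected on all 3 Control ACSF arrays, in percent, for each list or family with at least 7 measured genes, with counts in brackets. The dashed line marks all named genes (50.9%), and the bars run from 100% for astrocyte and oligodendrocyte markers to 0 of 78 for vomeronasal receptors.

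The detected and undetected genes differed in the sequence upstream of their start sites, a feature that the detection rule did not use, given here as a description with no test. RefSeq promoter windows (GRCm38.p6) were found by symbol for 3287 of 4064 detected protein-coding genes and for 2540 of 3238 that were detected on no array, and the 250 bases before the first listed start of each gene were read. In the detected genes the median window held 17 CG dinucleotides and was 60.4% G or C, against 6 and 52.4% in the undetected genes. Windows with at least 50% G or C and at least 0.6 of the CG dinucleotides that their base composition would give were 67.2% of those of detected genes and 31.6% of those of undetected genes. The share over all measured protein-coding genes was 51.6% (3147 of 6096 windows). Over all 32841 RefSeq windows it was 31.0%, but these were not limited to protein-coding genes or to 1 window per gene, so the shares are not alike. Without the olfactory, vomeronasal and taste receptors the undetected genes had 36.6%. Across quintiles of detected genes by brightness the share ranged only from 63.1% to 69.9%.

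Groups differed in the same measure. Of windows of the detected ribosomal protein genes 66.7% were CG-rich (45 windows), as were 68.4% for the respiratory chain (38 windows), 50% for pan-neuronal markers (20 windows), 18.2% for astrocyte markers (11 windows) and 0 of 8 for microglia markers, although all of these genes were detected. Windows of 3 genes are shown to illustrate this range, the 250 bases before the start written 5′ to 3′ on the gene's strand, with each CG dinucleotide in capitals. Rpl26, a ribosomal protein gene at chr11:68901316-68901565, plus strand, and Vmn1r13, a vomeronasal receptor gene at chr6:57209608-57209857, plus strand, had the CG count nearest the median of their families, and Gfap lies at chr11:102897201-102897450, minus strand.
Rpl26: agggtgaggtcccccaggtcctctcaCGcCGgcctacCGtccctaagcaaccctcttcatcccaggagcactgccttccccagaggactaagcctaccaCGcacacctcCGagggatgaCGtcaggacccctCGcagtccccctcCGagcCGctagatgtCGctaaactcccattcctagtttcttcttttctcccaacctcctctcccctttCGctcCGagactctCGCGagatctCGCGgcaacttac
Gfap: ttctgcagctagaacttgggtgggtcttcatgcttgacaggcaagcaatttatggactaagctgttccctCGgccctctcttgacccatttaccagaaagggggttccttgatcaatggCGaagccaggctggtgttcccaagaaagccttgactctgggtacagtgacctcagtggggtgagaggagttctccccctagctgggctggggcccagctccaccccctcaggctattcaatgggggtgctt
Vmn1r13: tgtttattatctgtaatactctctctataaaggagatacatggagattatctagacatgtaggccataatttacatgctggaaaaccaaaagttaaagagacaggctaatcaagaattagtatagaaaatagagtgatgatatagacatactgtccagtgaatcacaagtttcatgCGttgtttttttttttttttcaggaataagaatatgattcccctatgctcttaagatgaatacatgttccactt
The Rpl26 window held 16 CG dinucleotides, that of Gfap 2 and that of Vmn1r13 1. Gfap was chosen by name, and the median over the 11 windows of detected astrocyte markers was 6. Rpl26 read 12683.5, 12853.6 and 15026.9, Gfap was among the bright probes given above, and Vmn1r13 averaged 58.3 and was detected on no array. A bright gene could thus have a window nearly without CG dinucleotides, and the count describes these letters only.

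The 3 arrays agreed closely for most detected probes. After background correction and quantile normalization, the median SD of log2 intensity over the 3 arrays was 0.096, with 0.025 and 0.262 as 10th and 90th percentile. The median absolute difference was 0.08 between arrays 1 and 2, 0.122 between 1 and 3 and 0.117 between 2 and 3. Pearson correlations across the 15231 detected probes were 0.9942, 0.9873 and 0.987 in the same order. Probes share each array's labelling and scan and are not independent replicates. As deposited, with no normalization, the median coefficient of variation was 12.4%.

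The spread of dim probes depended on the background correction. In the dimmest quintile of detected probes the median SD was 0.035 with the correction used, which infers the negative controls from the detection score. It was 0.141 with no correction and 0.194 with negative control values recovered from the score directly, an alternative added after the data were seen. The background fitted with the inferred controls had an SD of 282.6 to 304.3. The recovered controls had 9.4 to 10.7 by a robust estimate that gives little weight to their tail (99th percentile 119.5 to 131.5). These measures are not alike, but by the SDs of the dimmest quintile the correction used flattened the dim probes. In the brightest quintile the 3 settings gave 0.13, 0.122 and 0.124.

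**Figure D3:**
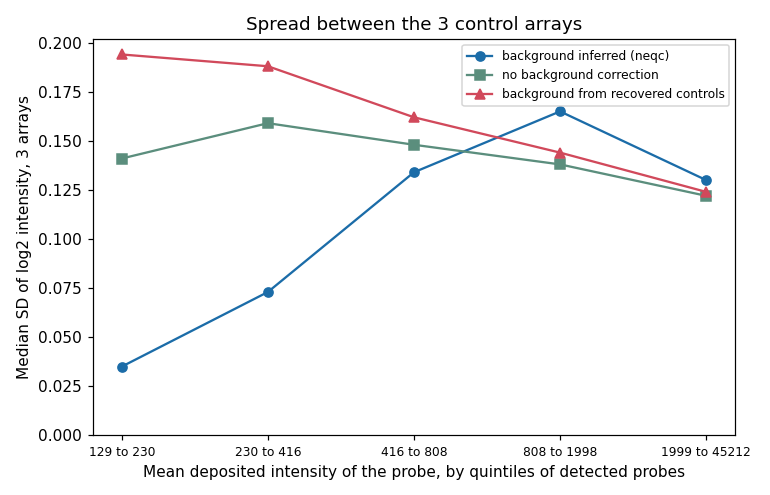
Median SD of log2 intensity over the 3 Control ACSF arrays for quintiles of the detected probes by mean deposited intensity, under 3 background settings. The lines meet in the brightest quintile (0.122 to 0.13) and part in the dimmest (0.035 to 0.194).

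Few probes differed between the arrays by a factor of 2 or more: 111 of 15231 (0.729%), and 23 of 4125 named genes (0.558%), those whose brightest probe was detected. Array 1 was the highest or the lowest in 48 of the 111, array 2 in 74 and array 3 in 100. The mean of chip 1 was at least 2-fold above chip 2 for 37 probes (0.243%) and at least 2-fold below for 10 (0.0657%). With no threshold on size, both chip 1 arrays lay above array 3 for 38.2% of detected probes and below it for 40.1%. The 2 arrays that share a chip, 1 and 2, differed at least 2-fold in 22 probes when array 3 was left out. With recovered negative controls the 111 became 272, and with scaling to a common median and no correction 250.

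The gene of largest spread was Gng12, a G protein gamma subunit, at 1508.4, 625.5 and 2854.7, an SD of 1.188 on the log2 scale after normalization. Gnaq, the G protein that couples receptors to phospholipase C, followed at 2028.7, 3831.9 and 1220.8 (SD 1.052). They spanned 4.98-fold and 4.28-fold after normalization, with Gng12 highest and Gnaq lowest on array 3. Mpp3, a synaptic scaffold protein, read 1045.2, 1024.1 and 2920.4 on its brightest probe and 150.7, 144.9 and 210 on another. Both probes were highest on array 3. After normalization their SDs were 0.837 and 0.066, so the second did not share the large spread, though the correction flattened dim probes. Cxcl1, given above, had an SD of 0.666.

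H2-D1, a classical MHC class I molecule, read 531.4, 795.9 and 171.9, and Mxra8, a cell surface protein of the immunoglobulin family, read 1539.2, 1834.2 and 965.7. Twistnb, which encodes a subunit of RNA polymerase I, read 674.8, 1056.9 and 369.3 and Nudt19 1567.2, 2500.5 and 1276.7. All 4 were lowest on array 3 and highest on array 2. Klk6 departed from this, since array 1 (1127.4) stood above both others.

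At the other end, the SD of log2 intensity was 0.002 to 0.003 for Hacd3, ND4L, Gsdmd, A930017M01Rik and Polr3d. Hacd3, an enzyme of very long chain fatty acid synthesis, read 17217.8, 18086.4 and 21081.4 as deposited and 14.18 on arrays 1 and 2 after normalization. Gsdmd (129.9, 134.9 and 133.2) and Polr3d (132.8, 140.8 and 140.4) lay near the detection threshold, where the correction flattened differences.

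Genes of one group tended to lie on the same side on array 3. Of the 26 detected pan-neuronal markers 25 were above both other arrays on array 3 and 0 were below both, with a median difference of 0.27 in log2 intensity from the mean of arrays 1 and 2. Markers of principal cells and subfields, also neuronal, did not share this, with 5 of 13 above both, 4 below both and a median of 0.01. Over all 4125 named genes 45% were above both and 33.9% below both, with a median of 0.02. Among the pan-neuronal markers Sv2a was the exception, at 12.47, 12.72 and 12.69 on the log2 scale, and Nefm, the medium neurofilament, at 9.87, 9.96 and 10.78, was among the largest differences (both named after their values were seen). Of the glutamate genes 10 of 11 were above both, with a median of 0.36, and Gria2 was at 13.12, 13.14 and 13.55.

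Glycolytic genes were above both in 12 of 15 cases (median 0.15) and the respiratory chain in 28 of 45 (median 0.09). Microglia and macrophage markers showed the opposite: 8 of 11 were below both arrays and 1, Lpl, above, with a median of -0.36. C1qa was at 10.78, 10.71 and 9.94 and Fcgr3, an Fc receptor of macrophages, at 10.26, 10.82 and 9.91. Genes of the pentose phosphate and glutathione group were below both in 7 of 9 cases, with a median of -0.21 and Prdx6 at 13.11, 12.96 and 12.33. Astrocyte markers (4 above and 6 below of 13) and oligodendrocyte markers (5 above and 2 below of 15) had medians of 0.03 and 0.04.

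The summed deposited intensity of the 26 pan-neuronal markers was 98904.7, 105865.5 and 152944.4, and that of the 11 microglia markers was 34452.9, 48588.7 and 38993.2. The microglia sum was thus not lowest on array 3 before normalization. With scaling to a common median in place of quantile normalization, the median difference of array 3 over all named genes was 0.30. Of these genes 77.7% were then above both other arrays and 10.4% below both. Under this scaling 2 of 11 microglia markers (18.2%) were below both, with a median of -0.04, and 26 of 26 pan-neuronal markers above both, with a median of 0.63. Under each setting tried the pan-neuronal median lay above that of all genes and the microglia median below it. Array 3 also differed in chip, in the deposited bead spread and in Xist, and the part of these in the differences was not tested.

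**Figure D4:**
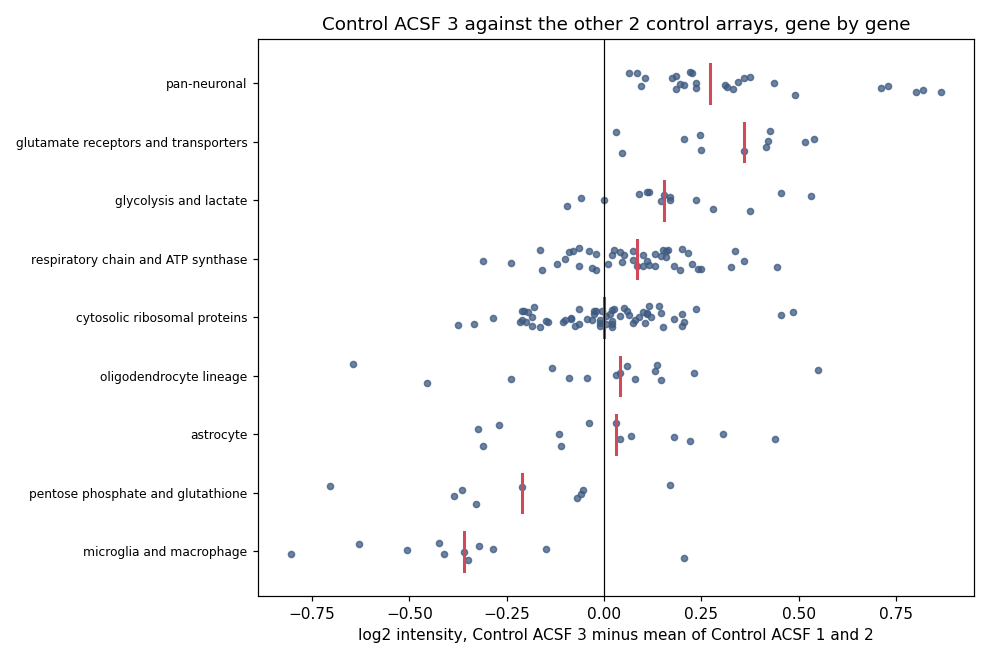
Difference in normalized log2 intensity between Control ACSF 3 and the mean of Control ACSF 1 and 2, 1 point per detected gene, with the median of each list as a bar (vertical jitter has no meaning). Pan-neuronal markers have a median of 0.27 and microglia markers of -0.36, while ribosomal protein genes centre on 0.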

How the data were processed

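Total RNA from slice cultures was labelled with biotin and hybridised to Illumina Mouse-6 v1.1 BeadChips, per the labels and the file headers. The deposited intensity columns hold the mean bead intensity per probe, and per the file headers BeadStudio 2.3.47 applied no normalization, while the submitters' processing notes name BeadStudio 2.0. The deposited detection columns hold a score from 0 to 1. Bead numbers and bead spread were used to describe the arrays. The deposited value table of the series kept each array's order of intensity on a linear scale, with medians of 81.3, 81.5 and 81.4 on Control ACSF 1, 2 and 3, and how it was normalized is not given in the sources used here.

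All 12 files were compared pair by pair, which left 9 distinct arrays, and none of the other samples equalled a Control ACSF array. Samples were grouped by title. Genes were read from the zero-padded number in the probe name, which was in the RefSeq gene table for 82.6% of 11857 such probes, against 46.0% after adding 1 to each number. A gene counted as detected if any of its probes scored above 0.99 on all 3 arrays.

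For the spread, limma 3.58.1 in R 4.3.3 corrected the background (neqc, offset 16, negative controls inferred from the score), normalized by quantiles and gave log2 values. The authors deposited no log2 values. The inferred background was found too wide, as given beside the results, and was kept because it had been fixed as the main setting. The detection rule and the SD calculation were tested on simulated data with a known background. That test ran neither neqc nor quantile normalization, so it does not cover the background correction. No test between groups was made, since only 1 group is described, and the number of arrays limits the precision.

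The genes named are the 20 brightest, up to 6 detected and up to 4 undetected members of each list, the 10 of largest and 5 of smallest SD, and all detected members of families with at most 5. Others were chosen after their values were seen. Some genes that this rule names are not reported here. The gene lists, families and settings were chosen with earlier results of these data known.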

Additional observations from a re-analysis of the deposited data

How the results depend on the processing

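No paired analysis was possible because the results describe 1 group and come from no test. Requiring a score of 1, the highest, left 10000 probes in place of 15231. Other detection rules kept the counts within 1.5 times, with 3067 to 4692 genes detected over all of them and 15388 to 15700 probes with 1 array left out. Of 64 lists, 50 to 64 stayed within 1.5 times of their count, depending on the rule, and lists that stayed at 0 are among these. The median SD of 0.096 became 0.193 with median scaling, 0.160 with recovered negative controls (added after the data were seen) and 0.013 with no filter on detection, where most probes were at background. With 1 array left out it was 0.055 to 0.087, lowest without array 3. The 111 probes at least 2-fold apart became 250 with median scaling, 272 with recovered controls and 22 to 84 with 1 array left out. The 47 probes at least 2-fold apart between chips became 108 with median scaling and 108 with recovered controls, and 60 to 84 without array 1 or 2, while leaving out array 3 leaves 1 chip. Of the 10 genes of largest spread, 6 were in common with median scaling, 6 with no filter, 6 with the authors' value table, 5 with recovered controls and 4 to 8 with 1 array left out. The cause of these moves was not tested. Dim probes limit what can be said: below an intensity of about 129 none passed on all 3 arrays.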

Other observations

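Detection was spread over the chromosomes. The share of named genes detected lay between 43.0% (chromosome 6) and 59.8% (chromosome 11) on the autosomes, and was 46.1% on the X chromosome, where 124 of 269 genes passed. On the Y chromosome 1 of 13 genes passed, which is Kdm5d. Chromosome 7, with 283 of 633 genes detected (44.7%), was next to chromosome 6 at the low end.

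Of the 20 brightest probes, 7 had a gene name, 4 were for mitochondrial DNA, 2 for 18S ribosomal RNA and 7 carried a name that could not be read as a gene. Among probes whose name is a RefSeq accession, 8 of 9 were detected, all of genes often used for normalization. Actb, the cytoplasmic actin, read 16819.1, 17152.1 and 11685.6 on its RefSeq-accession probe and 27558, 27684.8 and 27116.8 on a brighter probe named by gene number, both lowest on array 3. Tbp, the TATA-binding protein, was dim at 140.2, 123.5 and 150.3 and passed on 2 of 3 arrays. Of 73 probes for foreign sequences or transgenes, 0 were detected, with no mean above 119.6.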
